A study of Mus musculus with 3 samples.

Results

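Mpo, Elane, Prtn3, Cebpa and Gfi1, genes known from granulocyte precursors in the bone marrow, were read in 3 libraries of mouse skin mast cells. These 5 genes, of 17613 with a symbol in the table, were chosen by name with their levels in these libraries already known. Their levels and the differences between libraries are therefore given as a description, and no part of them is a test. The mice were of mixed C57BL/6xCD1xFVB background and 1 week old, and the mast cells had been marked in the embryo by Cre recombinase acting on an EYFP reporter after a pulse of 4’OHT (4-hydroxytamoxifen). Csf1r-driven Cre and a pulse at embryonic day 8.5 gave the early EMP library, whose column is headed as a control. Runx1-driven Cre gave the other libraries, late EMP with a pulse at day 8.5 and fetal HSC with a pulse at day 9.5. EMP stands for erythro-myeloid progenitor and HSC for haematopoietic stem cell. Each library is the only one of its origin, the labels do not say how many animals stand behind it, and no p-value can be given. Driver line and origin cannot be told apart where the early EMP library is compared with either of the others.

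Granulocyte precursors at the promyelocyte stage fill their first, or primary, granules with myeloperoxidase and with serine proteases of the elastase family. C/EBP alpha, the product of Cebpa, starts this programme, and the zinc finger repressor Gfi1 supports neutrophil over monocyte development. As the cells mature, the primary granule genes are switched off and the genes of secondary and tertiary granules follow. Mast cells store a related but distinct set of proteases, the chymases, tryptases and carboxypeptidase A3, and also cathepsin G.

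Below, 3 values in a row run from early EMP through late EMP to fetal HSC unless named otherwise. The implied depth was 15.3, 15.6 and 17.0 M fragments, an imprecise estimate read from the spacing of low values. All 12 connective tissue mast cell genes read as a check of the cell type were present, at summed levels of 217977, 187846 and 219253 FPKM (fragments per kilobase of transcript and per 1e6 mapped fragments). None of the 12 was at least 2-fold apart in either comparison with the early EMP library, and 1, the tryptase gene Tpsab1, was lower in fetal HSC than in late EMP, at 3608 against 7524 FPKM. Genes of cell division were higher in both Runx1-driven libraries. Against early EMP, 19 of 20 were at least 2-fold higher in late EMP and 16 of 20 in fetal HSC, with none lower. Of the 11529 genes with a symbol at 1 FPKM or more in at least 1 library, 7.55% and 8.08% were higher. The shares that were lower were 4.24% and 8.59%. In fetal HSC over late EMP, 2.71% were higher and 5.35% lower.

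Mpo encodes myeloperoxidase, the haem enzyme that makes hypochlorous acid in neutrophil granules (chromosome 11, 87793784 to 87804412, GRCm38.p6). It stood at 0.88 FPKM in early EMP, 39.2 in late EMP and 47.9 in fetal HSC. The early EMP library was thus far below both others, which lay close together. The late EMP level was 44.5 times the early EMP level (counting interval 32.1 to 64.7) and the fetal HSC level 54.4 times (39.3 to 78.9). Between fetal HSC and late EMP the ratio was 1.22 (1.14 to 1.30). These intervals cover counting error only, not the variation between animals or preparations. Among the 11529 genes with a symbol at 1 FPKM or more in at least 1 library, Mpo had the 9th highest log2 difference for late over early EMP and the 10th highest for fetal HSC over early EMP.

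Elane encodes neutrophil elastase, which cleaves elastin and bacterial proteins (chromosome 10, 79886312 to 79888216). Its level was 0.42 FPKM in early EMP, 8.73 in late EMP and 34.7 in fetal HSC. Unlike those of Mpo, its 3 levels were well separated, with fetal HSC highest. The ratio was 20.8 for late over early EMP (9.53 to 71.9), 82.7 for fetal HSC over early EMP (38.6 to 281) and 3.98 for fetal HSC over late EMP (3.23 to 4.90). The early EMP value corresponds to only 5.49 implied fragments, against 114 in late EMP and 498 in fetal HSC, which is why the first intervals are wide.

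Prtn3 encodes proteinase 3, a serine protease closely related to elastase (chromosome 10, 79879667 to 79883174). It reached 0.08 FPKM in early EMP, 5.38 in late EMP and 14.4 in fetal HSC, the same order as Elane. The early EMP value is that of about 1 fragment, and ratios to it are loose: 67.2 for late EMP (12.7 to 2932) and 180 for fetal HSC (35.1 to 7837). Fetal HSC over late EMP, which rests on 217 and 73 fragments, gave a ratio of 2.68 (2.06 to 3.57).

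**Figure D1:**
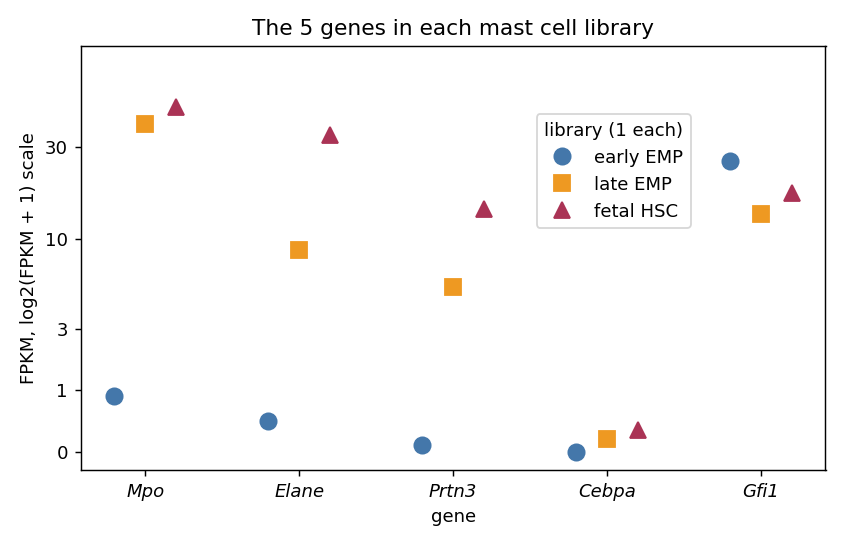
Level of each of the 5 genes in each library, in FPKM on a log2(FPKM + 1) axis; each point is the 1 library of its origin, without error bars. Mpo, Elane and Prtn3 lie below 1 FPKM in early EMP and above 5 in the other libraries, Cebpa is near 0 throughout, and Gfi1 is highest in early EMP.

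The mixture of the 3 enzymes also differed between late EMP and fetal HSC. Summed, Mpo, Elane and Prtn3 came to 1.38 FPKM in early EMP, 53.3 in late EMP and 97.0 in fetal HSC. Mpo made up 73.5% of that sum in late EMP and 49.4% in fetal HSC, while Elane made up 16.4% and 35.8% and Prtn3 10.1% and 14.8%. The level of Mpo was 4.49 times that of Elane in late EMP and 1.38 times in fetal HSC. The mast cell chymase Cma1 was 1199 times the sum in late EMP and 834 times the sum in fetal HSC. In bulk RNA, a small number of cells rich in these transcripts and a low level in many cells cannot be told apart.

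**Figure D2:**
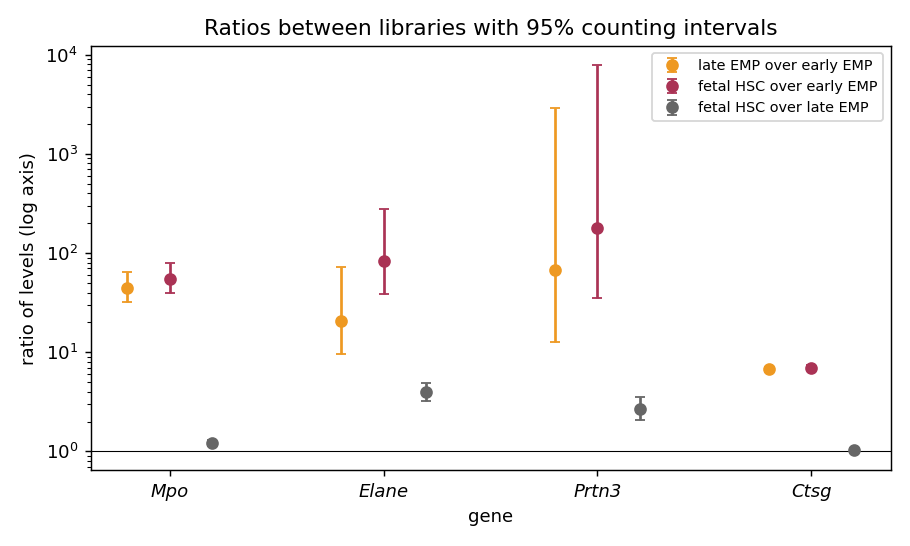
Ratio of the level of Mpo, Elane, Prtn3 and Ctsg between libraries, on a log axis; points are ratios of FPKM and bars are 95% counting intervals from implied fragments. The fetal HSC over late EMP ratios are 1.22 for Mpo, 3.98 for Elane, 2.68 for Prtn3 and 1.04 for Ctsg.

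The members were read against all 11529 kept genes. Of the 5, Cebpa never reached 1 FPKM, and Mpo, Elane and Prtn3 were kept only through the libraries in which they are high, so the counts that follow support nothing. In late over early EMP, 3 members passed 2-fold upwards and none downwards, where 7.55% of all kept genes were higher and 4.24% lower. In fetal HSC over early EMP, again 3 members were higher and none lower, beside 8.08% higher and 8.59% lower among all kept genes; both comparisons share the early EMP library. In fetal HSC over late EMP, 2 members, Elane and Prtn3, were higher and none lower, beside 2.71% and 5.35%. In that comparison the genes that were higher made up 33.7% of those past 2-fold, and 46.4% after scaling by median-of-ratios factors.

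Cebpa encodes the factor that opens the granulocyte programme (chromosome 7, 35119293 to 35121928). It was listed at 0 in the early EMP library and stood at 0.16 FPKM in late EMP and 0.28 in fetal HSC. The latter values correspond to 6.18 and 11.8 implied fragments. All 3 levels were far below those of Mpo in the Runx1-driven libraries. A listed 0 can be a failed estimate: Ndufs5, a respiratory chain subunit that all cells use, was also listed at 0 in the early EMP library, against 37.5 and 42.5 FPKM in the others.

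Gfi1, the zinc finger repressor (chromosome 5, 107716655 to 107725805), was highest in the library where the enzymes were lowest. Its level was 25.5 FPKM in early EMP, 13.6 in late EMP and 17.4 in fetal HSC. The log2 difference was -0.86 for late over early EMP, -0.53 for fetal HSC over early EMP and 0.33 for fetal HSC over late EMP, all within 2-fold. Its paralogue Gfi1b, a factor of erythroid and platelet precursors, was at 0.08, 2.73 and 0.63 FPKM in early EMP, late EMP and fetal HSC. Cebpa had the order of the enzymes, but at 0.28 FPKM or less, and Gfi1 had its highest level in early EMP. The name granulocyte precursor genes therefore describes where the 5 genes are known from, not a state shown here.

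Since Mpo, Elane and Prtn3 were low together in early EMP, the bases before their start sites were compared. The stretches run from 250 bases before the RefSeq start to the first GENCODE transcript start within that window, on the plus strand, 5′ to 3′, and are credited to RefSeq, GRCm38.p6. They are chr11:87793534-87793580 for Mpo, chr10:79886062-79886246 for Elane and chr10:79879417-79879613 for Prtn3. Capitals mark GAGGAA, the core bound by PU.1 and other ETS factors.
Mpo: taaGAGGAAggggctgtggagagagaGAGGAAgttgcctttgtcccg
Elane: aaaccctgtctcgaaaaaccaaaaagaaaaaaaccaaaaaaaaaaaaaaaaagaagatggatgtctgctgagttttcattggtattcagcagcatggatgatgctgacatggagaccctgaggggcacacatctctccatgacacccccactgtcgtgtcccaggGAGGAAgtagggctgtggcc
Prtn3: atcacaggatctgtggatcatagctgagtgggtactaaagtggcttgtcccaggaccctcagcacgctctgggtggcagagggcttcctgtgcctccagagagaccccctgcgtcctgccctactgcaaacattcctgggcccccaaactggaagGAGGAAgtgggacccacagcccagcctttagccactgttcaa

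All 3 stretches held GAGGAA on the plus strand, and in each of them 1 match continued to GAGGAAGT. That longer match began 224 bases before the RefSeq start in Mpo, 85 before it in Elane and 95 before it in Prtn3. Counted from the RefSeq start, the first GENCODE start lay at -203, -65 and -53, so each match was nearer to that start. Searched on both strands in the 250 bases before each of 32851 RefSeq starts, GAGGAA was present in 23.3% and GAGGAAGT, which contains it, in 2.44%. The longer motif was picked after the sequences were read, so its presence in all 3 is a description. The MYB core AACNG was also present in the 250 bases before the RefSeq start of all 3 genes, as in 74.2% of all starts. These windows run on past the printed stretches. In Mpo and Elane all MYB matches lay after the first GENCODE start, the first of them 165 and 50 bases before the RefSeq start. No match to TTNNGCAA (C/EBP, 9.56% of all starts), TGTGGT (RUNX, 14.0%), AGATAA (of the GATA factors, 9.99%) or AAATCA (GFI1, 12.4%) was found in these 3 windows. Neither GAGGAA nor GAGGAAGT was found before the start of Cebpa or either start of Gfi1. The cathepsin G gene Ctsg had GAGGAA 216 bases before its start but not GAGGAAGT, and it had 1 match to TGTGGT. Spi1, which encodes PU.1, was at 55.4, 49.8 and 49.3 FPKM in early EMP, late EMP and fetal HSC, and Myb at 40.7, 33.7 and 44.9. Neither gene had its lowest level in the early EMP library. A part of PU.1 or MYB in the levels of Mpo, Elane and Prtn3 was not tested.

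Prtn3 and Elane lie head to tail on chromosome 10, with 3137 bases between the end of Prtn3 and the start of Elane. The genes around them were read in the same libraries. Cfd, which encodes the serine protease complement factor D and follows Elane, was listed at 0 in early EMP and fetal HSC and stood at 0.83 FPKM in late EMP. Med16, a Mediator subunit on the far side of Cfd, was at 3.0, 4.54 and 5.06 FPKM in early EMP, late EMP and fetal HSC. Ptbp1, an RNA-binding splicing regulator on the other side, was at 72.8, 76.8 and 65.8 FPKM, and R3hdm4 at 31.3, 24.4 and 19.0. None of Med16, Ptbp1 and R3hdm4 was 2-fold apart in any comparison. Prss57, the gene of a further neutrophil serine protease, lies 105 kb before Elane and was at 0.12, 0.21 and 1.01 FPKM. Its ratio was 1.75 for late over early EMP, with an interval of 0.456 to 6.14 that includes equality, and 4.81 for fetal HSC over late EMP (2.34 to 12.4). Palm, whose span overlaps that of Prss57, was at 0.08, 0.35 and 1.43 FPKM, and the sources used here do not say whether the counting used strand.

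Lpo, the lactoperoxidase gene that follows Mpo on chromosome 11, was listed at 0 in early EMP and fetal HSC and stood at 0.02 FPKM in late EMP. Pxdn, which encodes peroxidasin, a haem peroxidase of the extracellular matrix, was at 1.56, 0.24 and 0.01 FPKM, highest in the library where Mpo was lowest. Supt4a and Mks1, other neighbours of Mpo, were at 69.8, 61.7 and 69.5 FPKM and at 5.81, 4.46 and 4.37 FPKM. Rnf43 was at 4.08, 6.81 and 2.97 FPKM. These neighbours did not share the low early EMP value of Mpo. Bzrap1 was at 0.10, 1.06 and 1.51 FPKM, lowest in early EMP like Mpo.

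**Figure D3:**
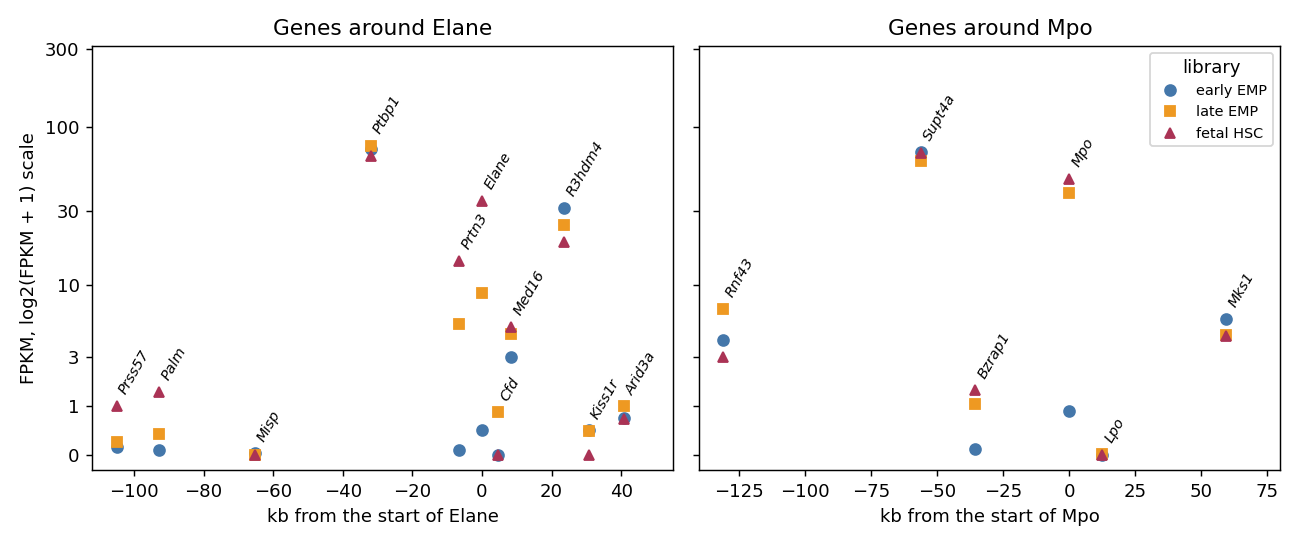
Levels of genes around Elane on chromosome 10 and Mpo on chromosome 11 in the 3 libraries, against the distance of each gene's lower coordinate from that of Elane or Mpo in kb; the vertical axis is FPKM on a log2(FPKM + 1) scale. Ptbp1 and Supt4a, the most abundant neighbours, have nearly coinciding points, while Elane, Prtn3 and Mpo are spread out.

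Other genes of the primary granule gave a mixed picture. Of 11 listed, 10 were in the table. In late over early EMP 3 were at least 2-fold higher, beside 7.55% of all kept genes. In fetal HSC over early EMP 4 were higher, beside 8.08%, and in fetal HSC over late EMP 2, beside 2.71%. None of the 10 was lower in these comparisons, beside 4.24%, 8.59% and 5.35%. Their median log2 differences were 0.09, 0.54 and 0.12, beside 0.06, -0.03 and -0.08 over all kept genes. Ctsg, cathepsin G, which mast cells also store, was at 112 FPKM in early EMP, 753 in late EMP and 783 in fetal HSC. Like Mpo, it was nearly level between the Runx1-driven libraries, with a ratio of 1.04 (1.01 to 1.07), but it was abundant in early EMP too. Ms4a3, a membrane protein of granulocyte and monocyte precursors, was at 0.45, 2.76 and 7.02 FPKM, in the order of Elane. Its ratio for fetal HSC over late EMP was 2.54 (1.74 to 3.82), close to that of Prtn3. Plac8, a small protein of myeloid cells, was at 6.24, 39.0 and 62.8 FPKM, also lowest in early EMP and highest in fetal HSC. Nkg7, a granule membrane protein of cytotoxic cells, was at 112, 117 and 308 FPKM, level between the EMP libraries. Cst7, the protease inhibitor cystatin F, was at 179, 230 and 186 FPKM, and the lysozyme gene Lyz2 at 37.6, 39.8 and 44.8. Both were within 2-fold throughout.

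Genes of later granulocyte stages were mostly at or near 0. Of 15 secondary and tertiary granule genes listed, 10 were in the table, and the others had no value. Among the 10, 7 did not reach 1 FPKM in any library. These included Ltf, lactoferrin, at 0.02 FPKM or less and Mmp9, gelatinase B, at 0.36 or less. The list summed to 3.88, 6.78 and 7.86 FPKM in early EMP, late EMP and fetal HSC. Its most abundant members were Pglyrp1, a peptidoglycan-binding protein, at 0.12, 3.0 and 2.93 FPKM and Hp, haptoglobin, at 1.12, 1.59 and 3.01. Cebpe, the C/EBP factor of this stage, had a listed 0 in each EMP library and 0.85 FPKM in fetal HSC.

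Markers of mature neutrophils were read because such cells could contribute RNA to a sort. Of 14 listed, 10 were in the table, and the others, S100a9 among them, had no value. Among the 10, 6 did not reach 1 FPKM anywhere. Csf3r, the receptor for G-CSF, was at 0.04, 0.26 and 0.02 FPKM, and Cxcr2, a chemokine receptor, at 0.05, 0.22 and 0.04. Ly6g was listed at 0 in late EMP and fetal HSC and at 0.42 in early EMP. The list summed to 8.79 FPKM in early EMP, 4.15 in late EMP and 38.3 in fetal HSC. S100a8, a subunit of the neutrophil protein calprotectin, made up most of the fetal HSC sum: it was at 1.30 FPKM in early EMP, listed at 0 in late EMP and at 28.9 in fetal HSC. Il1r2, a decoy receptor for interleukin 1, was at 5.93, 1.64 and 7.77 FPKM. Neither of these followed Mpo, since both were lower in late than in early EMP. The part of neutrophil RNA in the levels of Mpo, Elane and Prtn3 was not tested.

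**Figure D4:**
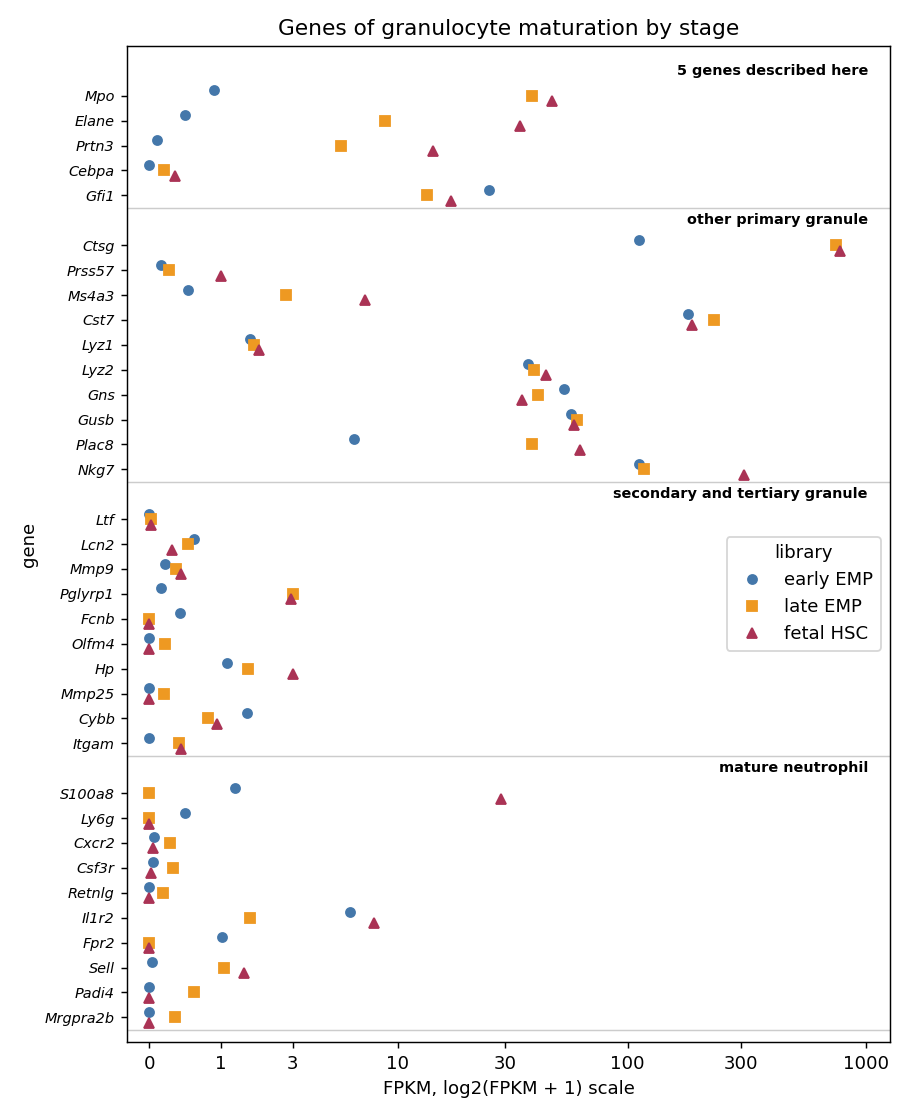
Levels of genes of the primary granule, of the secondary and tertiary granules and of mature neutrophils in the 3 libraries, in FPKM on a log2(FPKM + 1) axis, 1 point per library. Most genes of the lower groups lie under 1 FPKM in all libraries, with S100a8 in fetal HSC at 28.9 as an exception.

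Factors that act with or beside Cebpa and Gfi1 were read next. Of 26 transcription factors and cofactors of myeloid cells, 21 were kept; 4 were at least 2-fold higher in late than in early EMP with none lower, beside the 7.55% and 4.24% of all kept genes, and 2 higher and 1 lower in fetal HSC than in early EMP, beside 8.08% and 8.59%. In fetal HSC over late EMP 1 was higher and 1 lower, beside 2.71% and 5.35%. The medians were 0.04, 0.00 and -0.08. Irf8, which favours monocyte and dendritic cell fates over granulocytes, was at 0.21, 2.18 and 11.5 FPKM, lowest in early EMP and highest in fetal HSC like Elane. Cebpb, a C/EBP factor of inflammation, was at 1.66, 1.31 and 1.19 FPKM, and Runx1 at 12.7, 12.3 and 12.5. Kdm1a and Rcor1, a demethylase and its partner through which Gfi1 represses, were at 7.76, 7.99 and 6.94 and at 10.9, 13.2 and 15.6 FPKM. Id2, an inhibitor of basic helix-loop-helix factors, was at 538, 570 and 569 FPKM. Myc was at 1.59, 10.6 and 5.26 FPKM and Egr2 at 42.9, 89.2 and 54.7, both highest in late EMP. Nfia was at 6.64, 3.53 and 5.38 FPKM and the immediate early factor Egr1 at 1664, 2520 and 1669.

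Receptors for the growth factors of myeloid cells were dominated by those of mast cells. Of the 9 kept, 1 was at least 2-fold higher and none lower in late than in early EMP, beside 7.55% and 4.24% of all kept genes. In fetal HSC over early EMP, 2 were higher and 2 lower, beside 8.08% and 8.59%. In fetal HSC over late EMP, 1 was higher and 1 lower, beside 2.71% and 5.35%. Csf2rb, the shared beta chain for GM-CSF, IL-3 and IL-5, was at 102, 115 and 129 FPKM, and Il3ra at 22.6, 21.3 and 16.5. Il5ra, the IL-5 receptor chain, was at 4.76, 22.5 and 13 FPKM, lowest in early EMP. Flt3, a receptor of early progenitors, was at 0.07, 0.59 and 3.16 FPKM, in the order of Elane.

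Genes whose products mature, package or inhibit the granule enzymes ranged widely in level, from Serpinb1b at 0.04, 0 and 0 FPKM to Serpinb1a, given below. Of the 12 kept, 1, Serpinb1c, was at least 2-fold lower in both comparisons with early EMP, at 20.5, 8.49 and 9.02 FPKM, and none was higher. In fetal HSC over late EMP 1 was higher, Slpi, an inhibitor of elastase, at 0.87, 0.34 and 1.94 FPKM, and none was lower. Among all kept genes, 7.55% were higher and 4.24% lower in late than in early EMP. The shares were 8.08% and 8.59% for fetal HSC over early EMP, and 2.71% and 5.35% for fetal HSC over late EMP. Ctsc, the peptidase that activates the granule serine proteases, was at 116, 99.8 and 120 FPKM. Srgn, the serglycin core that holds proteases in granules, was at 4219, 4706 and 3540 FPKM, and Serpinb1a, an inhibitor of elastase and proteinase 3, at 4276, 4437 and 4070. Calr, a chaperone of the myeloperoxidase precursor, was at 83.4, 143 and 117 FPKM. The levels of Serpinb1a exceeded those of Elane and Prtn3 in every library. Of 18 genes mutated in inherited neutropenia, 15 were kept. The 1 that was at least 2-fold higher in each comparison was Elane itself, and none was lower, beside the same shares of all kept genes. Gata2, also a mast cell factor, was at 664, 517 and 359 FPKM, Lamtor2 at 305, 263 and 327 and Vps45 at 4.42, 8.91 and 6.22.

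By their level in each library, the genes most alike to the 3 enzymes came from several groups. Likeness was the Euclidean distance over log2(FPKM + 1) in the 3 libraries, which is a small number of points. Nearest to Mpo were Arg1, the arginase of the urea cycle (distance 0.93), Ndufs5 (0.93), S100a4 (1.32), Birc5 and Lsp1 (both 1.47). Nearest to Elane were Il5, the cytokine of eosinophil growth (0.56), the leukocyte actin-binding protein gene Lsp1 (0.71), Gzmb, granzyme B (1.16), Prtn3 (1.41) and the noncoding RNA Lockd (1.42). Prtn3 was the only member among the neighbours of Elane or Mpo by this measure. Nearest to Prtn3 were Kif11 (0.71) and Nuf2 (0.86), both of the mitotic spindle, Serpina3g (0.93), Ly6c2 (0.96) and Cdkn3 (0.96). Il5 was at 0.56, 13.1 and 32.3 FPKM and Ly6c2, a surface protein of monocytes, at 0.18, 2.65 and 20.9, both in the order of Elane. The division gene Birc5 was at 4.11, 33.6 and 42.7 FPKM.

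Markers of other cells that could carry these transcripts were summed in each library. Progenitor markers summed to 200, 280 and 307 FPKM in early EMP, late EMP and fetal HSC; 5 of the 13 in the table stayed under 1 FPKM, among them Hlf and Mecom. Only 11529 of all 17613 genes with a symbol reached that level in any library, so markers under it do not set this list apart. From early to late EMP, 2 of the 8 kept markers passed 2-fold upwards, beside 7.55% of all kept genes. No marker passed it downwards, beside 4.24%. From early EMP to fetal HSC, 3 passed it upwards and 1 downwards, beside 8.08% and 8.59%. Ly6a, the stem cell antigen, was at 2.40, 8.37 and 9.05 FPKM, and Cd34, also a mast cell gene in mice, at 44.5, 41.1 and 44.0. Monocyte and macrophage markers summed to 92.7, 67.6 and 54.9 FPKM. Of 11 kept, 3 were higher and 3 lower in late than in early EMP, beside the same 7.55% and 4.24%. Against early EMP, fetal HSC had 2 higher and 5 lower, beside 8.08% and 8.59%. Ccr2, a receptor of circulating monocytes, was at 0.11, 5.56 and 6.66 FPKM and Ly6c2 had the same order, while the complement gene C1qb of tissue macrophages was at 20.4, 13.3 and 3.96. The list had no single order: F13a1 was at 8.78, 3.25 and 1.94 FPKM, Cd14 at 3.55, 0.42 and 1.98 and Adgre1 at 0.50, 2.18 and 0.04.

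Basophil markers summed to 5870, 3622 and 4152 FPKM, most of it from Prss34, a tryptase also known in mast cells, at 2386, 459 and 989 and Cyp11a1 at 2185, 1888 and 1447. Mcpt8, the basophil protease, was at 14.5, 17.4 and 35.9 FPKM. Eosinophil markers summed to 12.6, 31.2 and 38.5 FPKM; the granule protein genes Prg2 and Prg3 were at 0.28 FPKM or less and at 3.65, 5.26 and 22.3. T cell and innate lymphoid markers summed to 45.9, 63.4 and 75.5 FPKM, B cell markers to 12.1, 10.4 and 18.5, keratinocyte markers to 0.96, 3.18 and 1.46 and fibroblast markers to 1.54, 6.97 and 3.22. The sums for eosinophil, progenitor and T cell markers were lowest in early EMP and highest in fetal HSC, as were Elane and Prtn3. The part of any of these cells in the levels of the 5 genes was not tested.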

How the data were processed

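RNA from the sorted cells was prepared with TRIzol and sequenced on an Illumina HiSeq, as the labels' protocols state. FPKM values of 3 libraries come from 1 table that the authors deposited, per the file headers. The submitters' processing notes name Bowtie2, RSEM, mm10 and GRCm38, with no versions. FPKM is a share of the library, so very abundant genes affect every other value.

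Differences are log2((FPKM + 1) / (FPKM + 1)), a scale that understates the change of low genes. Genes with a symbol at 1 FPKM or more in at least 1 library were kept, 11529 of 17613, and counted when at least 2-fold apart. With 1 library per origin there is no test. Depth is not stated and was inferred from how low values are spaced in genes with 1 RefSeq transcript (lengths from GENCODE M21). At the best step, 74.2%, 74.7% and 66.9% of low values lay within 0.15 of a whole fragment, from early EMP through late EMP to fetal HSC. A step fixed beforehand would give 30% by chance, and a fitted one more. Intervals of ratios are exact 95% binomial intervals on fragments rounded to whole numbers, and cover counting error only.

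The members and the gene lists were chosen with earlier results of these data known. The naming rule took all members, from each list its 2 most abundant genes and up to 4 at 5 FPKM or more with the largest difference, and the 5 genes nearest in pattern to Mpo, Elane and Prtn3. Other list genes are named for their role or for a level at or near 0, and were chosen after their values were seen. So was the longer of the promoter motifs. Coordinates and promoters are from RefSeq, GRCm38.p6, in which 17569 of 17613 gene identifiers matched. Alternatives were pseudocounts of 0.1 and 5 FPKM, 3 rescalings, no filter or a filter at 5 FPKM, a 4-fold level, and all 20677 rows. Only the 2-fold counts were tried on simulated data, with changes placed in genes at 5 FPKM or more in early EMP. Mpo, Elane and Prtn3 lie below that level there. The depth estimate, the intervals, the promoter search and the likeness measure were not tried in this way. Software was matplotlib 3.10.9, scipy 1.17.1, pandas 2.3.3 and numpy 2.4.6 under Python 3.11.15. Not all genes that the naming rule allows are named.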

Additional observations from a re-analysis of the deposited data

How the results depend on the processing

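Every log2 difference of Mpo, Elane and Prtn3 from the early EMP library stayed past 2-fold under both pseudocounts and all 3 rescalings: late over early EMP ranged from 2.91 to 5.32 for Mpo, 1.34 to 4.09 for Elane and 1.03 to 4.93 for Prtn3. Those of Gfi1 stayed within 2-fold, from -0.91 to -0.71 for late over early EMP and -0.56 to -0.45 for fetal HSC over early EMP. Prtn3 for fetal HSC over late EMP was 0.90 with a pseudocount of 5 FPKM, leaving 1 member past 2-fold, and 0 members were past 4-fold there. With a pseudocount of 0.1 FPKM Cebpa passed 2-fold, at 1.38 for late over early EMP and 1.93 for fetal HSC over early EMP, from a listed 0. Median-of-ratios factors shifted the median of kept genes by 0.11 for fetal HSC over late EMP.

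The counts of genes past 2-fold moved more, given here first for late against early EMP, then for fetal HSC against early EMP, then against late EMP. They were 2389, 3003 and 1949 with a pseudocount of 0.1 FPKM, 289, 394 and 140 with 5 FPKM, 700, 976 and 417 with the filter at 5 FPKM, and 2802, 3748 and 1686 with the unnamed regions. At 4-fold they were 172, 239 and 74. Rescaled to a sum of 1e6 they were 2097 for late over early EMP and 1610 for fetal HSC over late EMP. Depth limits the early EMP values of Elane and Prtn3, and 1 library per origin limits every comparison. No paired analysis was possible because each origin has 1 library.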

Other observations

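Erythroid genes, which share progenitors with granulocytes, had another order than the granule enzymes. Car1 and Car2, carbonic anhydrases of red cell precursors, were at 0.25, 25.9 and 5.45 FPKM and at 0.16, 12.8 and 2.95 FPKM, from early EMP through late EMP to fetal HSC. Both were highest in late EMP, as was Klf1, the erythroid factor, at 0.31, 3.85 and 1.13. Elane and Prtn3 were highest in fetal HSC. Car1, Car2 and Klf1 did share with Mpo, Elane and Prtn3 a lowest level in early EMP. The haemoglobin gene Hba-a1 had its highest level in early EMP, at 124 FPKM against 7.95 and 5.85. Of 10 kept erythroid genes, 4 were at least 2-fold higher and 5 lower in late than in early EMP. The shares of all kept genes were 7.55% and 4.24%. In fetal HSC over early EMP, 3 were higher and 6 lower, beside 8.08% and 8.59%. In fetal HSC over late EMP, none was higher and 4 were lower, beside 2.71% and 5.35%.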
